A study of Mus musculus with 16 samples.

Results

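The core thermogenic genes of brown fat were taken as 10 rows of the count table, picked by gene symbol: *Ucp1*, *Ppargc1a*, *Dio2*, *Cidea*, *Elovl3*, *Prdm16*, *Ebf2*, *Ucp2*, *Ucp3* and *Kcnk3*. They are 10 of 54347 listed genes, and 9 of them were among the 13150 genes with enough counts to be tested. *Dio2* was not tested. The cells were wt1-SAM, an immortalized mouse brown preadipocyte line in which the CRISPRa SAM system, a dead Cas9 with guide-bound activators, is stably expressed, so every library comes from 1 line. All 4 groups were differentiated with rosiglitazone, T3, dexamethasone, insulin, indomethacine and IBMX, kept on rosiglitazone, given 250 ng of plasmid by reverse transfection on day 4 and harvested on day 7. The groups were empty vector without stimulation (empty_ctrl), empty vector after 24 h of the β-adrenergic agonist isoproterenol at 1 µM (empty_iso), a pair of plasmids with sgRNAs against the long noncoding RNA *Gm15551* without stimulation (sgRNA_ctrl), and the same pair with isoproterenol (sgRNA_iso). Each group held replicates 3, 4, 5 and 6, for 16 libraries of polyadenylated RNA in all. Nothing in the labels says that replicates were separate cultures, so the p-values measure the spread between these samples, which may be technical.

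Brown adipocytes make heat by letting protons flow back across the inner mitochondrial membrane without making ATP, and UCP1 is the carrier that permits this. Noradrenaline acts on β-adrenergic receptors, cyclic AMP rises, protein kinase A is activated, and factors that bind cyclic AMP response elements (CREs), together with the coactivator PGC-1α, raise transcription of thermogenic genes. *Prdm16* and *Ebf2* encode transcriptional regulators of brown fat identity, *Dio2* the deiodinase that makes active thyroid hormone in the cell, *Cidea* a lipid droplet protein, and *Elovl3* a fatty acid elongase induced by cold in brown fat.

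The promoters of 3 members are shown because these genes are textbook targets of the cyclic AMP pathway and because *Ucp1* and *Ppargc1a* responded to isoproterenol here whereas *Dio2* was hardly read. The RefSeq promoter table (GRCm38.p6) held 6 of the 10 members (*Ucp1*, *Ppargc1a*, *Dio2*, *Prdm16*, *Ucp2* and *Ucp3*) and not *Cidea*, *Elovl3*, *Ebf2* or *Kcnk3*. Each line gives the 250 bases before the RefSeq start, 5′ to 3′ on the strand of the gene, with matches to the CRE letters in capitals: *Ucp1* from chr8:83290098-83290347 on the plus strand, *Ppargc1a* from chr5:51567726-51567975 on the minus strand and *Dio2* from chr12:90739039-90739288 on the minus strand.
Ucp1: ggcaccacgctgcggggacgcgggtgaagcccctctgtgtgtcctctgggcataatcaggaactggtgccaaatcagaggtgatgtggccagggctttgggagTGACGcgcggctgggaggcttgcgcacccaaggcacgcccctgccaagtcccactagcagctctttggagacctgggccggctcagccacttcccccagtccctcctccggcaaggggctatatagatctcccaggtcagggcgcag
Ppargc1a: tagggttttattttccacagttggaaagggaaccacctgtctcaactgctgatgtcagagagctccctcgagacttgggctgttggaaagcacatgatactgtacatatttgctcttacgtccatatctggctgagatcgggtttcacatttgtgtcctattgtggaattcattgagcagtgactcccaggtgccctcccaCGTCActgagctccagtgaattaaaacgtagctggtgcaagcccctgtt
Dio2: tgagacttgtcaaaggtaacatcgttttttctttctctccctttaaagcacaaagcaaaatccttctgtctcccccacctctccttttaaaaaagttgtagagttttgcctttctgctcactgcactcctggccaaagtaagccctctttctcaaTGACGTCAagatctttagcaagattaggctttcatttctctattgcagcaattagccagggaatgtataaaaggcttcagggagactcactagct

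The full CRE TGACGTCA, a palindrome, was searched in the 250 bases before the start in 32851 RefSeq promoters and was present in 1.55% of them. Of the 6 member promoters, that of *Dio2* held it, beginning 95 bases before the start. The shorter CRE letters TGACG, searched on both strands and contained in the full CRE, were present in 17.8% of promoters and in 4 of the 6 members. They began 147 bases before the start in *Ucp1*, 49 in *Ppargc1a* (on the opposite strand) and 62 in *Ucp2* (on the opposite strand), and in *Dio2* they lay within the full CRE. The NR4A element AAAGGTCA (1.34% of promoters) and the nuclear receptor DR1 element (0.0335%) were not found in the 6 windows, and the TATA box letters TATAAA (12.4%) were found in *Dio2*, 30 bases before the start. A match is a description of letters, and distances count from the RefSeq start, which can differ from the GENCODE start. The *Dio2* window begins at 90739039, well upstream of the GENCODE start at 90738438, so its CRE lies farther from that start. The *Ucp1* window ends at 83290347 and the GENCODE model begins at 83290352.

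The plasmids of the sgRNA groups carried 2 guides, shown because they are the sequences that set those groups apart. Guide 2 matches the minus strand of chr3:126669053-126669072, 129 bases before the RefSeq start of *Gm15551* (the GENCODE start is at 126669044), and its PAM, read from the RefSeq window, is in capitals. Guide 7 had no match in the promoter windows, which reach 250 bases upstream, and is printed without a PAM.
Gm15551-2: cacttccagttatataagcgTGG
Gm15551-7: agggttttttgctaaaacgg
Neither guide had an exact match in the 6 member promoters.

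Levels are given as CPM, counts divided by library size after TMM scaling. Library totals ran from 9053521 to 16546187 counts, of which 11.7% to 51.8% fell on 1 ribosomal RNA gene, CT010467.1, with the highest shares in replicate 5 of the empty vector groups (47.3% and 51.8%). A count of 3 corresponded to between 0.166 and 0.390 CPM, which is what a count of 0 still allows, for counting error only. The targeted *Gm15551* was read at 0.390 to 1.35 CPM in empty_ctrl, 0 to 0.421 in empty_iso, 1.42 to 3.92 in sgRNA_ctrl and 1.04 to 2.04 in sgRNA_iso. Its averaged sgRNA effect was a log2 fold change of 2.37 (SE 0.39, edgeR adjusted p = 0.0989), which passed when the replicate number was a block (2.41, SE 0.28, adjusted p = 0.00055). The general adipocyte label held: the 10 adipocyte markers, with *Fabp4*, *Lpl* and *Cd36* the most abundant, summed to between 14257 and 30894 CPM, and all 10 were tested. The white fat list summed to between 681 and 935 CPM, and 30 other genes of the brown fat programme to between 662 and 1249 CPM. These ranges overlap, and whether the cells were brown rather than white adipocytes was not tested. Markers of preadipocytes summed to between 5.54 and 85.2 CPM and those of smooth muscle to between 12.1 and 37.2 CPM, levels that overlap those of *Ppargc1a* and *Kcnk3*. The skeletal muscle list summed to 1.66 to 4.81 CPM with *Myod1* and *Myf5* at 0 in every library, the endothelial list to 2.04 to 3.63 CPM and the macrophage list, which is nearly all *Cd68* and *Cd14*, to 8.91 to 27.6 CPM. In bulk RNA, fewer cells of a type and less RNA per cell cannot be told apart.

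Levels were also divided by the length of all annotated exons of a gene, joined over its transcripts. That length can exceed the length of the transcripts made, so the order of genes on this scale is approximate. Per kilobase of exon so defined, *Elovl3* was highest in each group, at 119 CPM per kb ± 40.9 (SD, n = 4) in empty_ctrl. *Ucp2*, a relative of *Ucp1* found in many tissues, followed at 27.2 ± 5.21 CPM per kb, and on this scale the ranges of these first 2 did not overlap in any group. The divisor was 6989 bases over 11 transcripts for *Ucp2* and 1975 bases over 2 transcripts for *Elovl3*. In CPM their ranges did overlap in empty_ctrl (152 to 239 and 158 to 349), so their separation there depends on the divisor. *Kcnk3*, a potassium channel of the TASK type, stood at 9.62 ± 3.00 and *Ppargc1a* at 5.75 ± 1.41 CPM per kb in empty_ctrl. These neighbours overlapped in range in all 4 groups, and *Ppargc1a* stood above *Kcnk3* in sgRNA_iso (10.4 ± 2.03 against 9.69 ± 3.56). Below them came *Ebf2* (2.52 ± 0.446) and *Cidea* (1.45 ± 0.738), whose ranges overlapped in empty_ctrl.

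*Ucp1*, *Ucp3* and *Prdm16* lay at the low end without stimulation. In empty_ctrl they stood at 0.214 ± 0.184, 0.155 ± 0.0625 and 0.118 ± 0.0512 CPM per kb, with overlapping ranges. The place of *Ucp1* in this order changed with treatment: it had rank 7 of the 10 in both unstimulated groups, rank 5 in empty_iso at 3.93 ± 1.63 and rank 6 in sgRNA_iso at 5.72 ± 2.60 CPM per kb. In both stimulated groups its range overlapped that of *Cidea*, its neighbour in rank, so ranks 5 and 6 were not separated. *Dio2* was last everywhere, with 1 count in all 16 libraries.

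**Figure D1:**
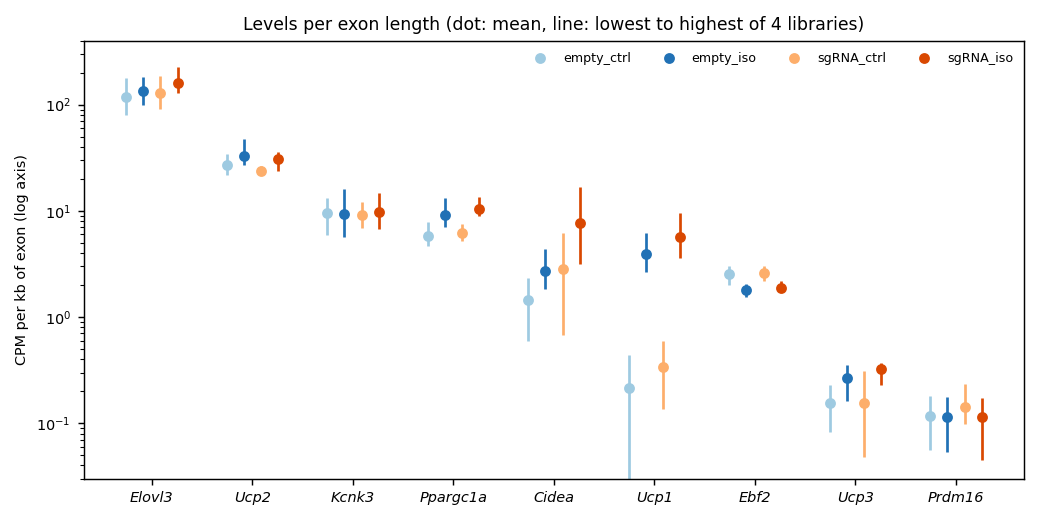
Mean level per kilobase of exon (log axis, CPM per kb) of 9 genes in each of the 4 groups, with lines from the lowest to the highest of 4 libraries. *Elovl3* is highest and *Prdm16* lowest, *Dio2* is left out because it had 1 count, and the line of *Ucp1* in empty_ctrl runs off the log axis because its lowest library was at 0.

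*Ucp1* (ENSMUSG00000031710, GRCm38 chr8:83290352-83298452, plus strand, 6 exons) encodes the uncoupling protein of brown fat. In empty_ctrl its level was 0.722, 0.263, 0 and 0.415 CPM in replicates 3, 4, 5 and 6, which are 12, 4, 0 and 4 counts. In empty_iso it was 10.0, 4.37, 4.45 and 6.81 CPM. In sgRNA_ctrl it was 0.979, 0.532, 0.225 and 0.456 CPM, and in sgRNA_iso 8.44, 5.94, 15.5 and 7.49 CPM. Every stimulated library was above every unstimulated one in both plasmid arms. *Ucp1* had passed the filter on low counts through its stimulated libraries (8 of the 9 libraries over the cutoff of 0.836 CPM), so a gene of this kind had to differ to be tested at all.

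*Ppargc1a* (ENSMUSG00000029167, chr5:51454250-51567726, minus strand), the gene of PGC-1α, was readily measured in every library. It was at 34.8, 34.8, 51.5 and 30.5 CPM in empty_ctrl and at 60.8, 46.0, 87.5 and 46.8 CPM in empty_iso, in the order of replicates 3 to 6. In the sgRNA arm it went from 34.0, 43.5, 50.0 and 35.2 CPM to 59.3, 64.3, 88.7 and 63.1 CPM. The stimulated and unstimulated ranges overlapped in the empty vector arm, because the unstimulated replicate 5 was above the stimulated replicates 4 and 6, and did not overlap in the sgRNA arm. Within each replicate number the stimulated library was higher, in 8 of 8 pairs.

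Averaged over the plasmids, isoproterenol raised *Ucp1* 16.3-fold (95% interval 9.44 to 28.2), or 4.03 on the log2 scale (SE 0.37, edgeR quasi-likelihood adjusted p = 7.36e-06). It raised *Ppargc1a* 1.64-fold (95% interval 1.31 to 2.05), or 0.71 on the log2 scale (SE 0.15, adjusted p = 0.0128). Passing the test required both an adjusted p under 0.05 and a log2 fold change beyond 0.5 in either direction. These were the 2 of 9 tested members that passed, both higher, beside 2.65% of all 13150 genes that passed in either direction and 1.33% that passed higher. The pairing of the libraries by replicate number moved this count: with the number as a block 4 of the 9 passed, all higher, beside 5.7% of all genes (3.09% higher). The members added were *Cidea* and *Ucp3*. Both counts include *Ucp1*, and the paired one *Ucp3*, genes that entered the test through their stimulated libraries, so nothing is read from the counts beside the percentages. The median log2 fold change of the 9 members was 0.32 without the block, against 0.0047 over all genes tested, and 7 of 9 were above 0 (6 with the block, where *Kcnk3* changed sign), against 6700 of the 13150. These too include *Ucp1* and *Ucp3* and are given as a description. The call of *Ppargc1a* without the block was lost when replicate 3 or replicate 4 was left out, with adjusted p from 0.00301 to 0.166 over all left-out libraries, and held in the paired fit in each of these cases.

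**Figure D2:**
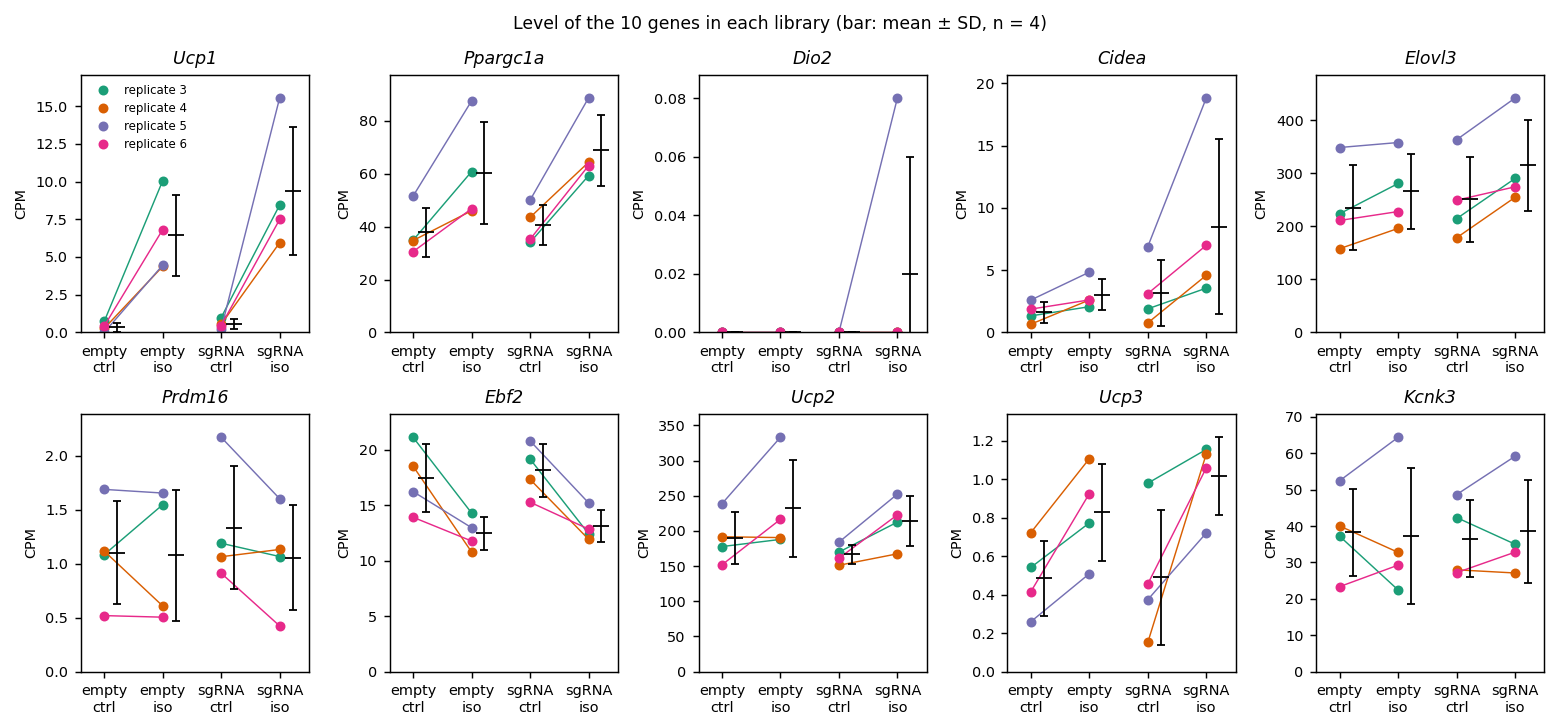
Level (CPM, linear axis from 0) of the 10 genes in each of 16 libraries, with lines joining the unstimulated and stimulated library of one replicate number within a plasmid arm and bars for mean ± SD of 4 libraries. All 8 lines rise for *Ucp1*, *Ppargc1a*, *Cidea*, *Elovl3* and *Ucp3*, all 8 fall for *Ebf2*, and the single count of *Dio2* is the 1 point above 0 in its panel.

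Within the arms, *Ucp1* passed both times, with a log2 fold change of 4.00 (SE 0.54, edgeR adjusted p = 0.000994) in empty vector cells and 4.05 (SE 0.51, adjusted p = 0.000719) in sgRNA cells. It was the 1 member of 9 that passed in either arm, beside 0.456% and 0.403% of all genes that passed higher there. *Ucp1* entered the test through its stimulated libraries, so its calls and its place in the counts here are a description. Its unstimulated counts were 0 to 12 in empty vector cells and 3 to 14 in sgRNA cells. *Ppargc1a* gave 0.67 (adjusted p = 0.235) in empty vector cells and 0.76 (adjusted p = 0.168) in sgRNA cells. With the block it passed in both, at 0.65 (adjusted p = 0.000718, 0.000221 to 0.00843 with libraries left out) and 0.76 (adjusted p = 0.000154, 5.82e-05 to 0.00559 with libraries left out). The paired fit called 3 of the 9 in each arm, beside 4.47% and 3.9% of all genes: *Ucp1*, *Ppargc1a* and *Ebf2* in empty vector cells, and *Ucp1*, *Ppargc1a* and *Cidea* in sgRNA cells. The list for empty vector cells depended on the fit: DESeq2 with the block called *Cidea* in place of *Ebf2*. That the lists differ does not itself show a difference between the arms.

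*Cidea* (ENSMUSG00000024526) was a low gene whose replicates stood far apart. In replicates 3 to 6 it was at 1.32, 0.657, 2.60 and 1.87 CPM in empty_ctrl and at 2.06, 2.60, 4.83 and 2.61 CPM in empty_iso. In sgRNA_ctrl it was at 1.89, 0.760, 6.89 and 3.12 CPM, and in sgRNA_iso at 3.55, 4.58, 18.8 and 6.99 CPM. Replicate 5 was the highest of its group each time, and the group ranges overlapped in each comparison. Within a replicate number, isoproterenol went with a higher level in 8 of 8 pairs. The averaged log2 fold change was 1.19 (SE 0.44, edgeR adjusted p = 0.155), and 1.20 (SE 0.21, adjusted p = 0.000746, 0.000549 to 0.00576 with libraries left out) with the block. In sgRNA cells it was 1.42 (adjusted p = 0.482, with the block 0.00303), but without the block it was 0.67 without sgRNA_iso replicate 5 and 2.13 without sgRNA_ctrl replicate 5 (1.19 to 1.58 with the block), and in empty vector cells 0.95 (adjusted p = 0.701, with the block 0.98 and 0.0709). DESeq2 with the block called *Cidea* in empty vector cells (1.01, adjusted p = 0.0315), and the adjusted p there ran from 0.0399 to 0.250 in paired edgeR fits with libraries left out.

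*Ucp3*, a mitochondrial carrier best known from skeletal muscle, was read with 151 counts in all, between 2 and 20 a library. Its level was 0.542, 0.723, 0.260 and 0.415 CPM in empty_ctrl, 0.773, 1.11, 0.509 and 0.925 in empty_iso, 0.979, 0.152, 0.374 and 0.456 in sgRNA_ctrl and 1.15, 1.13, 0.721 and 1.06 in sgRNA_iso. The stimulated library was the higher one in 8 of 8 pairs although the ranges overlapped in both arms, and several of these values are within reach of the counting floor. The averaged isoproterenol effect was a log2 fold change of 0.88 (SE 0.32, edgeR adjusted p = 0.143). With the block it was 0.92 (SE 0.29, adjusted p = 0.0342), a call that held in 5 of 20 fits with libraries left out, over which the adjusted p ran from 0.0145 to 0.154, and that DESeq2 with the block did not make (adjusted p = 0.0647). *Ucp3* entered the test through its stimulated libraries, which were 5 of the 6 over the cutoff where 4 were needed, so like *Ucp1* it had to differ to be tested. Of the 8 skeletal muscle markers, *Myod1* and *Myf5*, regulators that define that tissue, were at 0 in every library, while *Acta1* and *Mylpf*, genes of the contractile apparatus, were read at means of 2.19 and 0.802 CPM. Neither was called for isoproterenol, at log2 fold changes of 0.34 and -0.08, and the part of such cells in the *Ucp3* level was not tested.

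*Ebf2* (ENSMUSG00000022053, chr14:67233292-67430918, plus strand), a transcription factor of the brown preadipocyte and adipocyte, was the member that went down in each pair. It was at 21.1, 18.5, 16.2 and 13.9 CPM in empty_ctrl and at 14.3, 10.8, 13.0 and 11.8 in empty_iso. It was at 19.2, 17.3, 20.8 and 15.3 CPM in sgRNA_ctrl and at 12.4, 11.9, 15.2 and 12.9 in sgRNA_iso. The stimulated library was the lower one in 8 of 8 pairs, and the groups did not overlap in the sgRNA arm and overlapped by replicate 6 of empty_ctrl in the other. The averaged effect was a log2 fold change of -0.48 (SE 0.10, edgeR adjusted p = 0.0109), under the p threshold and just inside the fold threshold, so *Ebf2* was not called. In 7 of 20 fits with libraries left out it was past both. In empty vector cells it was -0.50 (adjusted p = 0.154), called with the block at -0.51 (adjusted p = 0.00940). In sgRNA cells it was -0.47 (adjusted p = 0.220). With the block it was -0.46 there (adjusted p = 0.0139), under the p threshold and inside the fold threshold. The paired call in empty vector cells was lost in 6 of 20 fits with libraries left out (adjusted p from 0.00532 to 0.133), and DESeq2 with the block gave -0.4996, just inside the fold threshold. *Ebf2* shares 424 exonic bases with *Gm10860* on the other strand, and whether strand was used in counting is not given in the sources used here, so reads of the pair cannot be told apart there.

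*Elovl3* and *Ucp2* were the abundant members, and both moved little. *Elovl3* was at 224, 158, 349 and 211 CPM in empty_ctrl, 281, 196, 358 and 228 in empty_iso, 215, 179, 364 and 250 in sgRNA_ctrl and 291, 255, 443 and 275 in sgRNA_iso. Replicate 5 was highest and replicate 4 lowest in each group, while the stimulated library was higher in 8 of 8 pairs. The averaged isoproterenol effect was a log2 fold change of 0.25 (SE 0.19, edgeR adjusted p = 0.547). *Ucp2* was at 178, 192, 239 and 152 CPM in empty_ctrl, 188, 191, 333 and 217 in empty_iso, 170, 151, 184 and 161 in sgRNA_ctrl and 213, 167, 252 and 223 in sgRNA_iso. It was higher in 7 of 8 pairs, and its log2 fold change was 0.32 (0.13 SE, adjusted p = 0.192). With the block both were under the p threshold, *Elovl3* at 0.27 (adjusted p = 0.00329) and *Ucp2* at 0.31 (adjusted p = 0.0108), and neither reached the fold threshold. By adjusted p alone 7 of the 9 members passed in the paired fit, beside 21.3% of all genes, and 3 of 9 without the block, beside 4.49%.

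*Prdm16* and *Kcnk3* showed no shared direction. *Prdm16*, read with 5 to 29 counts a library, was at 1.08, 1.12, 1.69 and 0.519 CPM in empty_ctrl, 1.55, 0.609, 1.65 and 0.505 in empty_iso, 1.19, 1.06, 2.17 and 0.912 in sgRNA_ctrl and 1.07, 1.13, 1.60 and 0.424 in sgRNA_iso. It was higher with isoproterenol in 2 of 8 pairs, with a log2 fold change of -0.21 (SE 0.34, edgeR adjusted p = 0.816). *Kcnk3* was at 37.2, 40.0, 52.5 and 23.4 CPM in empty_ctrl, 22.4, 32.8, 64.4 and 29.3 in empty_iso, 42.3, 28.0, 48.6 and 27.2 in sgRNA_ctrl and 35.0, 27.1, 59.2 and 32.8 in sgRNA_iso. It was higher in 4 of 8 pairs, and its log2 fold change was 0.02 (0.23 SE, adjusted p = 0.985), a sign that changed with the processing. In both genes replicate 5 had the highest mean over the groups and replicate 6 the lowest.

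*Dio2* gave 1 count in 16 libraries, in replicate 5 of sgRNA_iso (0.0801 CPM), and 0 in the other 15. A count of 0 allows a level of up to between 0.166 and 0.390 CPM in these libraries. A change of *Dio2* with isoproterenol or sgRNA below that level was therefore not detectable at this depth, and no library was read above it.

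**Figure D3:**
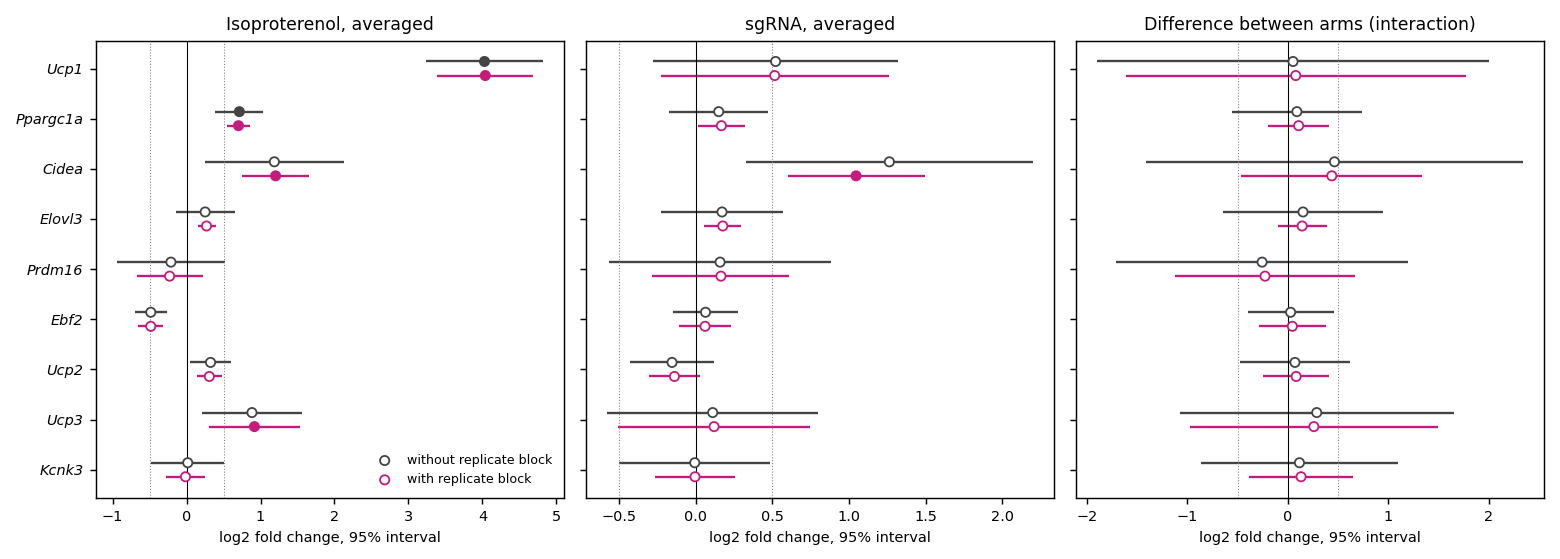
Log2 fold changes of the 9 tested genes with 95% intervals, for the averaged isoproterenol effect, the averaged sgRNA effect and the difference of the isoproterenol effect between plasmid arms, without (grey) and with (pink) the replicate number as a block. Filled points passed the test, whose fold bound is the dotted lines at 0.5: 2 and 4 genes for isoproterenol, 0 and 1 for sgRNA, and none for the difference.

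The question of whether raising *Gm15551* changes the thermogenic genes was approached by the sgRNA effect averaged over treatments. Its control was the empty vector, and no group carried a non-targeting guide. Effects of carrying any guide and of raising *Gm15551* therefore cannot be told apart here. No member passed without the block, where 0% of the 13150 genes passed by edgeR (437 at an unadjusted p under 0.05, and 10 called by DESeq2). *Cidea* had the largest estimate, a log2 fold change of 1.26 (95% interval 0.33 to 2.20, unadjusted p = 0.0114, adjusted p = 1.00), and the sgRNA library was higher in 8 of 8 pairs. With the block it was 1.05 (SE 0.21, adjusted p = 0.0348), which passed, the 1 of 9 members, beside 0.266% of all genes (0.0456% higher). That call held in 6 of 20 paired fits with libraries left out, over which the adjusted p ran from 0.00845 to 0.436 and the log2 fold change from 0.78, without replicate 5, to 1.21. DESeq2 with the block also called it (1.03, adjusted p = 0.0011). In the same paired edgeR fit *Ly6a*, a marker of preadipocytes, passed lower in sgRNA cells (-0.74, adjusted p = 0.00491), at means of 14.9 against 25.98 CPM unstimulated and 30.7 against 49.3 CPM stimulated. The other tested genes of that list did not pass: *Pdgfra* at 0.05 (adjusted p = 0.948) and *Pi16* at -0.20 (adjusted p = 0.852). On average the sum over the list is mostly *Ly6a* (mean 30.2 CPM, against 2.71 for *Pdgfra* and 0.683 for *Pi16*), so it largely repeats that gene. The preadipocyte markers summed to 5.54 to 35.5 CPM in sgRNA_ctrl and 10.4 to 63.3 CPM in empty_ctrl, and to 13.8 to 60.2 CPM in sgRNA_iso and 14.9 to 85.2 CPM in empty_iso. Their part in the *Cidea* result was not tested.

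The share of counts on CT010467.1 moved with the plasmid: it was 19.7% to 47.3% in empty_ctrl and 22.1% to 51.8% in empty_iso, against 17.8% to 20.2% in sgRNA_ctrl and 11.7% to 28.7% in sgRNA_iso. In empty vector cells it was also higher with isoproterenol in each pair (41.6% against 20.9%, 22.1% against 19.7%, 51.8% against 47.3% and 31.7% against 28.0% in replicates 3 to 6). In sgRNA cells it was higher in replicates 3 and 6 and lower in replicates 4 and 5. With that share as a covariate, an alternative added after the data were seen, the sgRNA effect on *Cidea* was 1.78 (adjusted p = 0.753) without the block and 0.43 (adjusted p = 1) beside it, so the covariate moved the estimate up in one fit and down in the other. Beside the block the isoproterenol effect on *Cidea* was 1.42 (adjusted p = 5.61e-05). The isoproterenol effect on *Ucp1* was 4.38 and that on *Ppargc1a* 0.64 in the same fit, both still called.

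For the other members the 95% interval of the sgRNA effect, without the block, included 0. With the block it excluded 0 for *Elovl3* (0.18, 0.06 to 0.30, adjusted p = 0.232) and *Ppargc1a* (0.17, 0.02 to 0.32, adjusted p = 0.386), and neither passed. The values that follow are without the block. *Ucp1* gave a log2 fold change of 0.52 (95% interval -0.28 to 1.32, 7 of 8 pairs higher), *Ppargc1a* 0.15 (-0.17 to 0.47, 5 of 8) and *Ebf2* 0.07 (-0.15 to 0.28, 5 of 8). *Elovl3* gave 0.17 (7 of 8 pairs higher), *Prdm16* 0.16 (4 of 8), *Ucp3* 0.11 (7 of 8), *Kcnk3* -0.005 (4 of 8) and *Ucp2* -0.15 (3 of 8). The edgeR adjusted p was 1.00 for each, and no group range of a member was separate from its empty vector counterpart, beside 1.3% of all genes without and 1.03% with isoproterenol whose ranges were separate. The median over the 9 members was 0.15, against -0.009 over all genes.

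Split by treatment, no member passed the sgRNA test by edgeR without or with the block, beside 0% of all genes without it (194 genes unstimulated and 196 stimulated at an unadjusted p under 0.05, with 3 and 4 called by DESeq2) and 0.0304% and 0.122% with it. *Cidea* gave 1.03 unstimulated and 1.495 stimulated, *Ucp1* 0.50 and 0.55, and *Ppargc1a* 0.11 and 0.20 on the log2 scale. Single libraries carried much of this: *Cidea* was at 0.33 without sgRNA_ctrl replicate 5 and 0.75 without sgRNA_iso replicate 5. In paired fits with libraries left out it ran from 0.57 to 1.06 unstimulated and from 0.99 to 1.60 stimulated. DESeq2 with the block called *Cidea* in stimulated cells (adjusted p = 0.0133). By edgeR without the block, *Ucp1* ran unstimulated from 0.06 without sgRNA_ctrl replicate 3 to 1.16 without empty_ctrl replicate 3. Stimulated it was 0.06 without replicate 5. The difference of the isoproterenol effect between the arms was 0.05 (95% interval -1.89 to 2.00) for *Ucp1*, 0.09 (-0.55 to 0.74) for *Ppargc1a* and 0.47 (-1.41 to 2.34) for *Cidea*. No gene passed this test in either edgeR fit (52 and 199 genes at an unadjusted p under 0.05 without and with the block, 0 and 3 called by DESeq2). With the block the intervals were narrower: -1.61 to 1.77 for *Ucp1*, -0.20 to 0.41 for *Ppargc1a* and -0.46 to 1.34 for *Cidea*, and differences inside them were not detectable here.

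For isoproterenol, 1 of 9 members (*Ucp1*) had separate ranges in empty vector cells, beside 4.08% of all genes, and 3 of 9 (*Ucp1*, *Ppargc1a* and *Ebf2*) in sgRNA cells, beside 7.23%. The filter on low counts favoured separate ranges for *Ucp1*, so its place in these counts is a description.

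The sum of squares of log2 CPM over the 16 libraries was divided between replicate number, isoproterenol, sgRNA and their interaction for each gene. Isoproterenol took 88.1% for *Ucp1*, 64.2% for *Ebf2* and 58.1% for *Ppargc1a*. The replicate number took 79.2% for *Prdm16*, 77.4% for *Elovl3* and 72.2% for *Kcnk3*, and 4.02% for *Ucp1*. For *Cidea* the shares were 42.0% replicate number, 28.4% isoproterenol and 18.0% sgRNA, the last being the largest sgRNA share of the 9. Replicate 5 had the highest mean CPM for 7 of 9 members (*Ucp1*, *Ppargc1a*, *Cidea*, *Elovl3*, *Prdm16*, *Ucp2* and *Kcnk3*) and replicate 3 for *Ebf2* and *Ucp3*. For *Ucp1* this rested on sgRNA_iso (15.5 CPM in replicate 5). Its means were 5.054 CPM in replicate 5 and 5.048 in replicate 3, and replicate 5 was lowest in both unstimulated groups. The share over all genes was not computed, so the count is a description. The preadipocyte markers, led by *Ly6a*, summed to 5.54 to 14.9 CPM in replicate 5, to 13.2 to 64.5 in replicates 3 and 4 and to 35.5 to 85.2 in replicate 6. Their part in the differences between replicates was not tested.

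**Figure D4:**
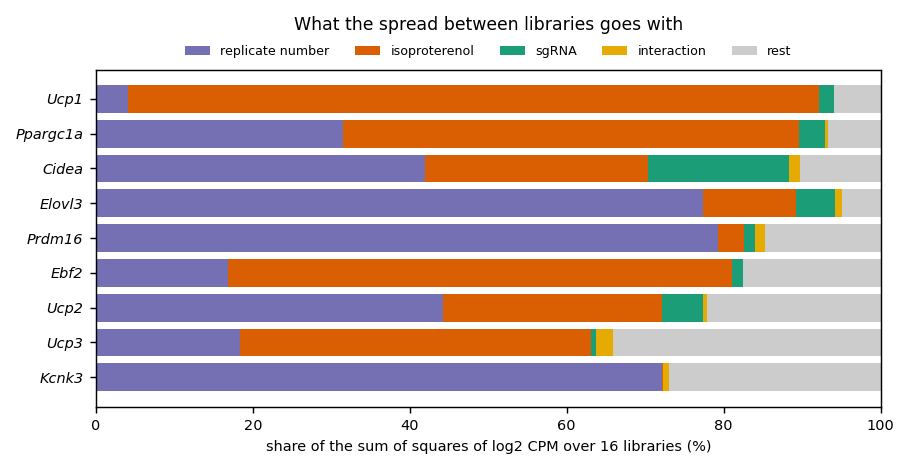
Share (%) of the sum of squares of log2 CPM over 16 libraries that goes with replicate number, isoproterenol, sgRNA, their interaction and the rest, for the 9 tested genes. The bar of *Ucp1* is mostly isoproterenol (88.1%), those of *Prdm16*, *Elovl3* and *Kcnk3* mostly replicate number, and the sgRNA share is largest for *Cidea* (18.0%).

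Of 24 paralogs of the members 14 were tested, and 2 passed for isoproterenol, beside 2.65% of all genes: *Cideb*, a lipid droplet protein of the *Cidea* family, rose by a log2 fold change of 0.71 (edgeR adjusted p = 0.0484), and *Cidec*, the abundant family member of adipocytes, fell by 0.54 (adjusted p = 0.0299). With the block *Elovl6* and *Mecom* were added, 1 in each direction, beside 5.7% of all genes. The median of the 14 was -0.04.

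Of 30 other genes of the brown fat programme 18 were tested, 16 of them were above 0 for isoproterenol (6700 of all 13150 genes) and 3 passed (2.65% of all genes). *Fgf21*, a secreted metabolic hormone, gave a log2 fold change of 0.67 (SE 0.11, edgeR adjusted p = 0.00225). *Cited1*, a transcriptional coregulator, gave 1.81 (SE 0.21, adjusted p = 9.00e-05), and *Pdk4*, a kinase that restrains pyruvate oxidation, 0.59 (SE 0.15, adjusted p = 0.0345). With the block *Plin5*, a lipid droplet protein of oxidative tissues, was added (0.64, adjusted p = 0.00417). The median of the 18 was 0.28. This list, like the other lists, was chosen with earlier results of these data known, so its counts and median are a description. The 12 that were not tested included *Adrb3*, the β3-adrenergic receptor, and *Zic1*, a marker of classical brown fat, at mean levels of 0.176 and 0.0342 CPM.

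Among 22 activating regulators 19 were tested and 1 passed, beside 2.65% of all genes: *Nr4a1*, an orphan nuclear receptor induced by cyclic AMP, with a log2 fold change of 2.24 (SE 0.22, edgeR adjusted p = 1.20e-05). With the block *Zfp516* (higher) and *Cebpa* (lower) passed too, beside 5.7% of all genes. All 12 repressing regulators were tested and none passed, in either fit. Of the 10 adipocyte markers 4 passed for isoproterenol, all lower, beside 2.65% of all genes in either direction. The median of the 10 was -0.62, with *Lpl* at -0.01 and *Fabp4* at -0.34 not passing. Those that passed were *Adipoq* (-1.06, adjusted p = 0.00222), *Cfd* (-1.48, adjusted p = 0.00763), *Lipe* (-0.69, adjusted p = 0.0139) and *Pnpla2* (-0.67, adjusted p = 0.0386). With the block 6 passed, *Plin1* and *Gpd1* added. Of the 7 tested genes of the white fat list 1 passed, *Retn*, lower (-0.58, adjusted p = 0.0079), and 3 of the 7 were above 0. The 2 tested genes of the macrophage list, *Cd68* and *Cd14*, passed higher (0.91, adjusted p = 0.00518, and 0.82, adjusted p = 0.00384). The share over all genes beside both lists was 2.65%. On the same list *Ptprc*, a general marker of leukocytes, and *Adgre1*, a marker of macrophages, had mean levels of 0.0385 and 0.00346 CPM, and the part of such cells was not tested. No gene of the preadipocyte, skeletal muscle, smooth muscle and endothelial lists passed without the block. With it *Ly6a* of the preadipocyte list passed higher (1.09) and 3 of the 4 tested smooth muscle genes lower, beside 5.7% of all genes. The remaining smooth muscle gene, *Des*, went the other way (0.49, adjusted p = 0.0140), inside the fold threshold. For the sgRNA effect no gene of any list passed without the block, and with it *Ly6a* was the 1 gene outside the members that passed.

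**Figure D5:**
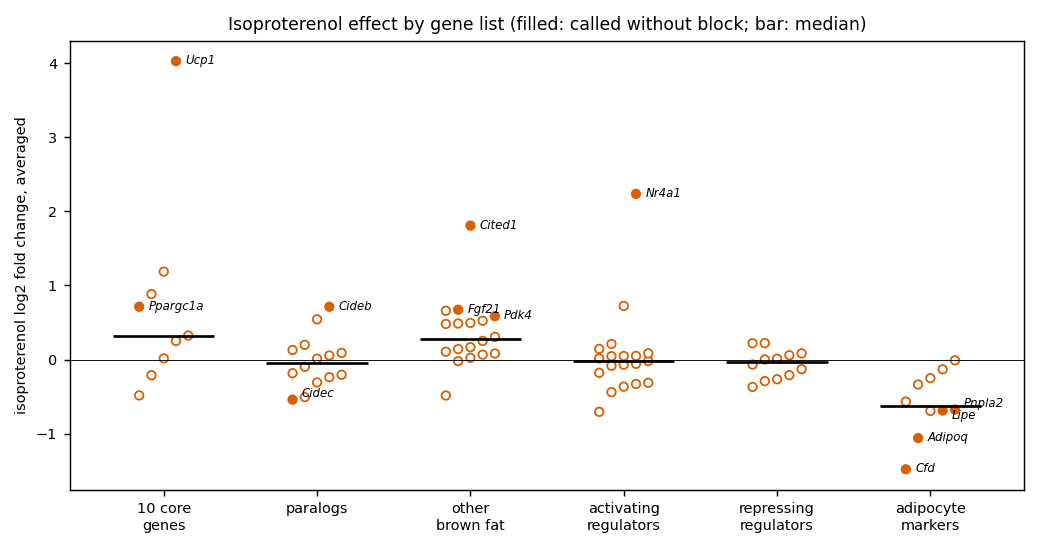
Averaged isoproterenol log2 fold change (no block) of each tested gene in 6 lists, with the list median as a bar and genes that passed filled and named. The medians are 0.32 for the core genes, 0.28 for the other brown fat genes and -0.62 for the adipocyte markers, and those of the paralogs and the 2 regulator lists are near 0. The lists were chosen with earlier results of these data known, so the medians are a description.

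The genes most like 3 members over the 16 libraries were named by the Pearson correlation of log2 CPM, as a description, since libraries of a group share their treatment. For *Ucp1* these were *Prl2c3* (r = 0.97), ENSMUSG00000086320 (0.96) and *Krt13* (0.95). For *Ppargc1a* they were *Slc25a51* (0.93), *Gk* (0.92) and *Slc25a33* (0.92), and for *Cidea* *Plin5* (0.94), *Pdk4* (0.90) and *Tmem161b* (0.90). On deviations from the group means, which leave out the treatment, other genes led: *Tfrc*, *Tox4* and *Gm13283* (0.83, 0.82 and 0.81) for *Ucp1*, *Sfmbt1*, *Ermp1* and *Pdhx* (each 0.92) for *Ppargc1a*, and *Hacl1*, *Cavin2* and *C330007P06Rik* (0.96, 0.94 and 0.94) for *Cidea*. Of these, *Plin5*, *Pdk4* and *Gk* were on the list of the brown fat programme.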

How the data were processed

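The 16 libraries were grouped from the sample titles. The deposited values are estimated counts (expected counts) per gene, which the authors made by trimming reads with cutadapt and running salmon on the GENCODE M22 transcriptome or M22 plus RNAcentral (GRCm38); they are whole numbers and not normalized. Tool versions and strand use are not given in the sources used here. All per-sample columns were used. Genes were kept by filterByExpr (minimum count 10, total 15), scaled by TMM and fitted over all 16 libraries with edgeR 4.0.16 (quasi-likelihood, group means, limma 3.58.1, R 4.3.3), with Benjamini-Hochberg adjustment over 13150 genes. The script was tested on simulated data. Intervals are 95%, and log2 CPM used a prior count of 2. The alternatives were DESeq2 1.42.0, RLE scaling, no filter, removal of CT010467.1, a replicate block, left-out libraries and, added after the data were seen, the CT010467.1 share as a covariate. Same-numbered libraries deviated together from their group means (r from 0.224 to 0.613 over 24 pairs, against -0.512 to 0.516, median -0.215, over 72 pairs of different numbers), so the numbers were taken to pair the libraries. Named genes were all members, *Gm15551*, up to 6 called genes and 3 abundant markers a list, and the 3 most correlated genes of 3 members. *Adrb3*, *Zic1*, *Myod1*, *Myf5*, *Ptprc*, *Adgre1*, *Pdgfra*, *Pi16*, *Des* and genes called only with the block were named after their values were seen. The members and lists were chosen with earlier results of these data known. Gene positions are from GENCODE M21, which matched 54094 of 54347 identifiers. *Elovl3*, *Dio2*, *Prdm16*, *Kcnk3* and *Ucp2* share 10 to 305 exonic bases with genes on the other strand.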

Additional observations from a re-analysis of the deposited data

Results flagged for a closer look

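In 1 of 37 sets of 4 libraries (a member in a group, values not all equal), a library stood apart: *Dio2* in sgRNA_iso, where replicate 5 held 1 count and the others none, so the gap was the whole range of the group (a ratio of 1). Chance sets a library apart in about 1 in 20 such sets, and 1 count is below the floor of 3.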

How the results depend on the processing

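The members called for the averaged isoproterenol effect numbered 2, 4 with the replicate block and 4 with the CT010467.1 share beside the block, an alternative chosen after seeing the data. With libraries left out they numbered 1 to 3 without the block (1 without replicate 3 and 1 without replicate 4) and 3 to 5 with it. In empty vector cells 1 was called, 3 with the block, 3 by DESeq2 with the block, 3 with the share beside the block, and 2 to 4 in paired fits with libraries left out. In sgRNA cells 1 was called, 2 by DESeq2, 3 by DESeq2 with the block, 3 with the block, 3 with the share beside it, and 1 to 4 with libraries left out. For the averaged sgRNA effect 0 were called, 1 with the block, 1 by DESeq2 with the block, and 0 to 1 with libraries left out. In stimulated cells 0 were called, 1 by DESeq2 with the block (*Cidea*, adjusted p = 0.0133, 0.0133 to 1 over the alternatives that leave out no library), and 0 to 1 with libraries left out. The counts over all genes moved in the same fits. In empty vector cells they were 109 genes, 588 with the block, 583 by DESeq2 with the block and 567 with the share beside the block, and in sgRNA cells 92, 513, 518 and 538, with 177 by DESeq2. With libraries left out they ran from 35 (without replicate 4) to 181 (without empty_ctrl replicate 6) in empty vector cells and from 29 (without replicate 4) to 98 in sgRNA cells, and with the block from 418 to 685 and from 348 to 555. The averaged isoproterenol effect called 349 genes, 749 with the block and 120 without replicate 3, and the averaged sgRNA effect 0, 35 with the block, 10 by DESeq2 and 55 by DESeq2 with the block, which called 30 in stimulated cells.

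*Ucp1* kept its isoproterenol call in each of the 48 alternatives. *Kcnk3* changed sign for isoproterenol with the block (-0.01442), no filter (-0.01514), DESeq2 with the block (-0.01229), the share (-0.09633) and the share beside the block (-0.004572), and ran from -0.1808 to 0.1571 with libraries left out. Its sgRNA effect changed sign with RLE scaling (0.0006166), no filter (0.01936), DESeq2 with the block (0.01234) and the share (0.2984), and ran from -0.1393 to 0.1933. The sgRNA effect also changed sign for *Ucp2* (0.1109) and *Ucp3* (-0.1883) with the share, and beside the block for *Ucp3* (-0.2484), *Ebf2* (-0.02482) and *Ucp1* (-0.1133, and -0.3006 in stimulated cells). With libraries left out it ran from -0.01125 to 0.1533 for *Ebf2* and from -0.2008 to 0.4765 for *Ucp3*. For *Ucp1* the averaged sgRNA effect ran from 0.2662 to 0.8529 with libraries left out, without the block. With the share and no block the sgRNA effect was 0.591 for *Elovl3*, 0.5118 for *Prdm16* and 0.453 for *Ppargc1a*, and none of these passed. The difference between arms ran from -0.6077 to 0.4952 for *Ucp1* (-0.3745 with the share beside the block), from -0.08522 to 0.3267 for *Ppargc1a* and from -0.2802 to 1.174 for *Cidea*, and it was called for 3 genes by DESeq2 with the block and for 1 with the share beside the block, none of them members. The cause was not tested. In empty vector cells the members called with the block were not the same in each fit: *Ebf2* passed in edgeR alone, and *Cidea* by DESeq2 (1.01) and with the share beside the block (1.303). In edgeR, the block changed no call of a member other than those named with their results. Low counts limit *Dio2*, *Ucp3*, *Prdm16* and unstimulated *Ucp1*.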
